A study of Mus with 4 samples.

Results

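The gene expression of the murine podocyte line that carried the control vector was described from its 2 microarrays, Venus replicates 1 and 2, which are 2 of the 4 arrays in the series. The members were chosen by their sample label alone, the genes were ranked by spot signal, and the 2 arrays of cells that overexpressed OASIS, the transcription factor encoded by Creb3l1, were not used here. Immortalized murine podocytes were differentiated for 10 to 14 days at 37 °C without interferon-γ, incubated for 24 h with a lentivirus that encoded the fluorescent protein Venus at a multiplicity of infection of 200 to 500 with 8 μg/mL polybrene, and lysed for total RNA at 48 h. All the cells therefore came from 1 cell line, had been exposed to a lentivirus and were grown outside the glomerulus, and neither uninfected podocytes nor isolated glomeruli were measured on these arrays. The labels do not say whether the samples were separate cultures, so the spread given here (SD, n = 2) is that between arrays and may be technical.

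Podocytes are the visceral epithelial cells of the glomerulus, and their interdigitating foot processes cover the outer face of the glomerular basement membrane. Neighbouring foot processes are bridged by the slit diaphragm, a cell junction built around nephrin (Nphs1), which is tied through adaptor proteins to a contractile actin cytoskeleton. The cells rest on laminin and type IV collagen, hold on to them through integrins, and secrete vascular endothelial growth factor toward the capillary.

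A gene was taken as detected when at least 1 of its probes was well above the local background on both arrays, and as not detected when no probe was on either array. Of 26893 named genes, 15857 were detected, 839 had the mark on 1 array or on different probes of each array, and 10197 were not detected. The share detected, 59.0%, is the background against which each gene list is read. It pools gene types: 68.0% of 20422 protein-coding genes were detected, but 26.8% of 4075 long noncoding RNA genes. A list of protein-coding genes can thus exceed 59.0% without exceeding protein-coding genes in general. Levels are log2 signals of the gene's brightest probe minus the 75th percentile of all probes on that array, so a level of 0 lies at that percentile, and 9227 detected genes (34.3% of all genes) were above it on both arrays. Among protein-coding genes that share was 43.5%. The lowest probes well above background had levels of -5.52 and -5.57 on replicates 1 and 2, and genes that were not detected had a median level of -7.58. A level places 1 probe among the other probes and gives no ratio of transcripts between genes.

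The 5 podocyte markers Synpo, Cd2ap, Podxl, Wt1 and Nphs1 gave unequal signals, and the transcript of nephrin (Nphs1) was near the background. Synpo, which encodes the actin-associated protein synaptopodin, was detected by all 4 of its probes, and its brightest probe had levels of 4.13 and 4.35 on replicates 1 and 2. Cd2ap, whose product is an adaptor that binds nephrin and the actin cytoskeleton, was detected by all 3 probes, with 3.37 and 3.26 on the brightest. Both genes thus lay above the 75th percentile on each array. Podxl, the gene of the sialomucin podocalyxin on the apical surface of foot processes, was detected at -1.93 and -2.35 by 1 of 2 probes, and the other probe was not well above background (-7.54 and -7.54). Wt1, the transcription factor that directs podocyte differentiation and marks podocyte nuclei, was detected by both of its probes at low levels, -4.16 and -4.29 on the brighter and -5.19 and -4.72 on the dimmer. Nphs1 had the mark on replicate 1 only (-5.20), while replicate 2 was not well above background (-6.38), and its other probe was not detected on either array. Checked against the label, the line thus had Synpo and Cd2ap above the 75th percentile and Podxl and Wt1 below it, and the defining slit diaphragm transcript Nphs1 was above background on 1 array only.

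**Figure D1:**
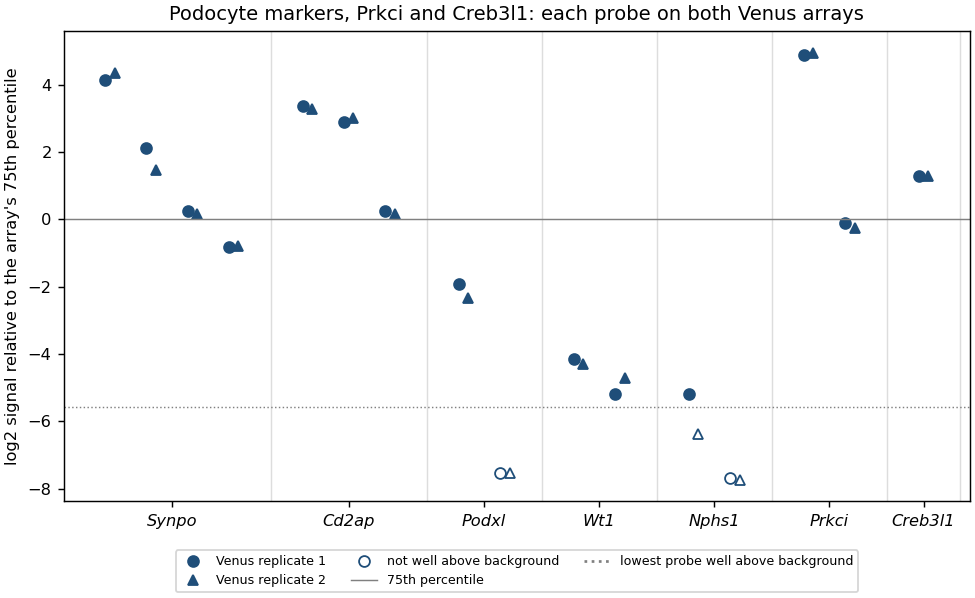
Log2 signal (vertical axis, with 0 at the array's 75th percentile) for every probe of 5 podocyte markers and of Prkci and Creb3l1, with 1 column per probe, circles for replicate 1 and triangles for replicate 2. Filled points were well above background and open points were not: all 4 Synpo probes and all 3 Cd2ap probes are filled, whereas Nphs1 has 1 filled point, on replicate 1.

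Among 24 slit diaphragm proteins and their partners, 18 were detected, 14 of them above the 75th percentile on both arrays, 1 had the mark on 1 array and 5 were not detected. The count of 18 fell to 10 when every probe of a gene had to be detected. The median level of the list was 1.36, against -3.41 over all named genes. The members of highest level were Fat1, a giant protocadherin of the slit, at 6.31 and 6.43, and Prkci, the atypical protein kinase C of the polarity complex, at 4.89 and 4.95. Kirrel, which encodes the nephrin-related Neph1, followed at 3.77 and 3.77, together with Cd2ap. The polarity and adaptor genes Pard3, Pard6b, Nck1, Nck2 and Tjp1 were also detected. The genes that were not detected included some that encode proteins placed in the slit or in its signalling: Crb2 (-7.04 and -6.70), a crumbs polarity protein, Kirrel2 (-7.55 and -7.61), a further nephrin-like protein, Ptpro (-7.55 and -7.63), a receptor tyrosine phosphatase of the foot process, and Trpc5 (-7.57 and -7.64), a cation channel. The brightest probe of Prkci lay at 96.3% of all probes in rising order, but its other probe had levels of -0.12 and -0.27, so the level of this gene depended on the probe.

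The podocyte cytoskeleton was the list most fully represented among the 4 podocyte lists beyond the 5 markers. Of its 20 members 19 were detected and 17 were above the 75th percentile, with a median level of 3.20. Shares were also high for genes annotated to stress fibres (90.8% of 76 detected) and to actin filaments (84.3% of 83). A high share was thus not particular to the podocyte list. Arhgdia, which holds small GTPases inactive, had levels of 6.86 and 6.80, and Myh9, the heavy chain of nonmuscle myosin, had 6.43 and 6.44. Cfl1, the actin-severing protein cofilin, was at 5.84 and 5.73, and Palld, the actin-bundling scaffold palladin, was at 5.75 and 5.77. The actin cross-linker Actn4, the formin Inf2 and the membrane linker Ezr were likewise above the 75th percentile. Ddn, which encodes the foot process protein dendrin, was not well above background (-6.94 and -7.60). Podxl and Clic5, a chloride channel-like protein that joins podocalyxin to ezrin, were detected below the 75th percentile, Clic5 at -4.34 and -4.23.

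Transcription factors of the podocyte lineage were detected in 12 of 14 cases (85.7%), 7 of them above the 75th percentile (50%). Of 752 genes annotated with DNA-binding transcription factor activity, 75.3% were detected and 48.3% were above it. The share of the list above the 75th percentile was thus near that of transcription factors in general. Klf6, a zinc finger factor, had levels of 6.13 and 6.21, and of the Hippo pathway effectors Yap1 had 4.32 and 4.50 and Wwtr1 had 3.35 and 3.58. Their DNA-binding partner Tead1 was at 2.37 and 2.42. Lmx1b, which is more closely tied to podocyte identity, gave a lower signal, at -2.09 and -1.94. Tcf21 (-7.76 and -7.83) and Dach1 (-7.69 and -7.45), which are both expressed in podocytes of the developing and adult kidney, were not well above background. Of 18 surface and secreted podocyte proteins, 15 were detected and 8 were above the 75th percentile. Nes, the intermediate filament nestin, was at 4.75 and 4.73, the ephrin Efnb2 at 4.10 and 4.25, Vegfa, the podocyte's survival factor for endothelium, at 4.12 and 3.86, and the guidance cue Sema3a at 3.56 and 3.60. Angpt1 (-6.86 and -6.10), the ligand of the endothelial receptor Tek, Pla2r1 (-6.15 and -7.36), the main autoantigen of membranous nephropathy, and Ildr2 (-7.69 and -7.76) were not detected.

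**Figure D2:**
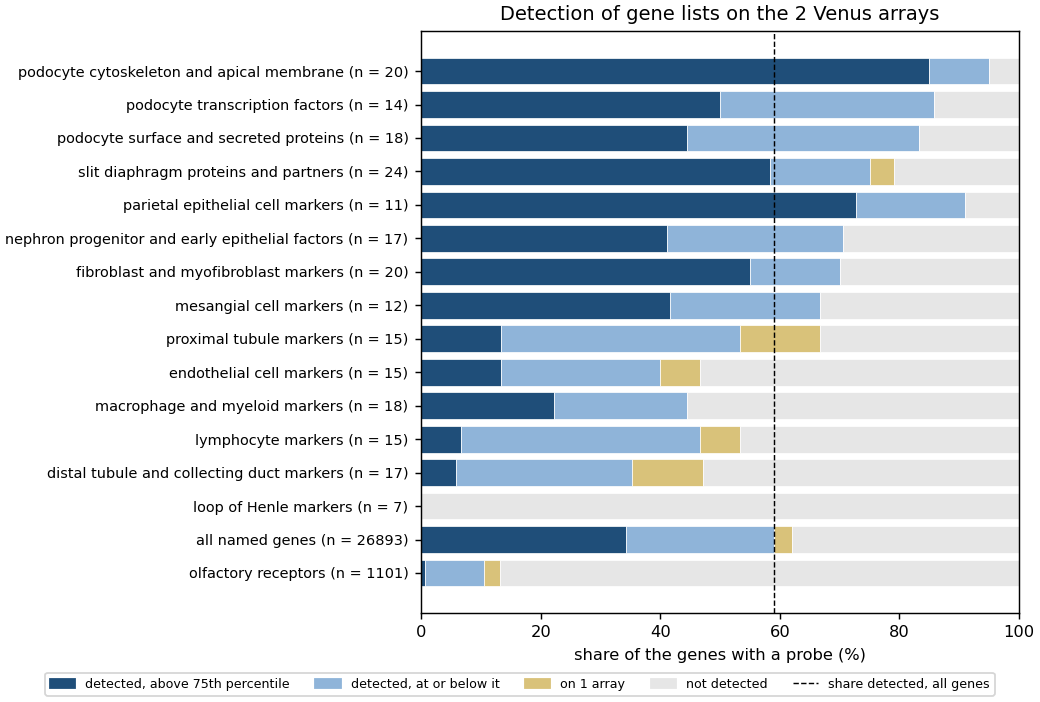
Share of each list's genes (horizontal axis, %) that were detected on both arrays above the 75th percentile (dark blue) or at or below it (light blue), that had the mark on 1 array (yellow), or that were not detected (grey), for 4 podocyte lists, 10 lists of other kidney, immune and lineage markers, all named genes and olfactory receptors. The dashed line is the 59.0% detected over all genes. The podocyte lists exceed it, and so do the parietal epithelial (90.9%), nephron progenitor (70.6%), fibroblast (70.0%) and mesangial (66.7%) lists. The loop of Henle markers (0 of 7) and olfactory receptors (10.4%) are among those that do not reach it.

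Genes whose human orthologues are mutated in inherited nephrotic syndrome were mostly present. Of 48 with a probe, 43 were detected and 34 were above the 75th percentile, with a median level of 2.40, and 28 when every probe was required. The 4 of highest level were Itsn1 (6.87 and 6.88), an endocytic scaffold, Arhgdia, Actn4 (5.66 and 5.67) and Itga3 (5.21 and 5.14). The nucleoporin genes Nup93, Nup107, Nup205, Nup85, Nup133 and Nup160, the coenzyme Q genes Coq2, Coq6 and Coq8b, and the KEOPS complex genes Osgep, Tprkb and Lage3, all of which act in every cell, were detected. Those not detected included Ptpro, Crb2 and Kank4 (-7.71 and -7.79), and Nphs1 had the mark on 1 array. Of the genes of Alport syndrome, Col4a5 was at 2.81 and 3.19, Col4a4 at -2.77 and -2.35 and Col4a3 at -2.76 and -2.46, and Gla, the lysosomal galactosidase lost in Fabry disease, was at 7.29 and 7.17.

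The chains of each basement membrane family gave unequal signals. All 6 type IV collagen chains were detected, and 5 when every probe was required. Of the chains of the widespread network, Col4a2 had levels of 4.996 and 5.11 and Col4a1 had 4.38 and 4.54, and Col4a5 was the other chain above the 75th percentile. Col4a3 and Col4a4, which podocytes combine with Col4a5 in the mature glomerular basement membrane, and Col4a6 (-4.77 and -4.60) were detected below it. Col4a3 was detected by 1 of 2 probes, and Col4a6 lay near the detection limit. Of 11 laminin chains 8 were detected, and 3 when every probe was required. Lamb1, a chain of early basement membranes, was at 6.76 and 6.79, and of the chains of the mature glomerular laminin Lama5 was at 4.26 and 4.61 and Lamb2 at 2.28 and 2.43. Lamc1, the gamma chain of most laminins, was at 2.54 and 2.82. Lama3 (-6.01 and -6.17), Lama4 (-5.87 and -5.72) and Lamb3 (-5.41 and -6.10) were not well above background. Among other basement membrane proteins 9 of 10 were detected, with Sparc, a collagen-binding matricellular protein, at 8.53 and 8.68, the heparan sulfate proteoglycan Agrn at 6.31 and 6.39, Col18a1 at 6.15 and 6.01 and Tinagl1 at 3.79 and 3.94, and Col15a1 was not (-7.73 and -7.34).

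Fibrillar collagens gave low signals. Of 11 chains 8 were detected but only Col5a1 (3.43 and 3.74) lay above the 75th percentile, and the median level was -4.27. Col1a1, the main chain of scar collagen, was at -2.68 and -2.30, Col5a2 at -2.61 and -2.06 and Col11a2 at -2.20 and -2.37. Col3a1 (-7.59 and -7.63), Col5a3 (-6.85 and -5.98) and Col24a1 (-5.63 and -7.64) were not well above background.

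All 15 focal adhesion genes were detected above the 75th percentile, with a median level of 4.90. Zyx, a sensor of tension at actin bundles, was at 7.07 and 7.11, the actin cross-linker Flna at 6.62 and 6.60, the adhesion scaffold Bcar1 at 6.60 and 6.53 and the integrin activator Tln1 at 6.27 and 6.29. Of the integrin chains that hold podocytes to laminin, Itga3 was at 5.21 and 5.14 and Itgb1 at 7.32 and 7.41. In all, 12 of 18 alpha chains and 8 of 8 beta chains were detected. Itgav, which binds vitronectin, was at 4.58 and 4.62, Itga6, a laminin receptor, at 3.67 and 3.63 and Itgb5 at 5.75 and 5.81. Itgam, the alpha chain of the myeloid complement receptor, gave 4.48 and 4.35 on its brighter probe but -4.87 and -5.06 on the other, and its partner Itgb2 was at -3.63 and -3.41. Itgb7, the beta chain of lymphocyte homing receptors, likewise gave 4.08 and 4.04 and -3.28 and -3.68 on its probes, and Itgb3, the vitronectin receptor chain, was at -0.77 and -0.88. The alpha chains that were not detected were Itga2 (-5.60 and -6.18), Itga4 (-5.85 and -6.03), Itga8 (-6.46 and -6.16), Itgax (-6.81 and -6.29) and Itgad (-7.75 and -7.83), and Itga11 had the mark on 1 array.

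Among markers of other kidney cells, many of those of mesenchyme and early epithelium were detected, and most of those of differentiated tubule and vessel were low or missing. The lists did not separate fully. The mesangial list (66.7% detected, median level -4.49) and the proximal tubule list (53.3%, -4.90) both lay near the 59.0% over all genes. Neither reached the 68.0% of protein-coding genes. When every probe was required, 4 mesangial and 8 proximal tubule markers were detected. Of 20 fibroblast and myofibroblast markers 14 were detected (70.0%) and 11 were above the 75th percentile (55.0%), against 59.0% and 34.3% of all genes. The shares of protein-coding genes were 68.0% and 43.5%, so the share detected was near theirs. Fn1, the matrix protein fibronectin, was at 8.08 and 7.95, Tagln, the smooth muscle protein transgelin, at 7.95 and 7.85, Vim, the intermediate filament vimentin, at 6.88 and 6.69, and the matrix protein Fbln2 at 6.67 and 6.78. Acta2, smooth muscle actin, was at 6.70 and 6.71 on its brightest probe and was detected by 3 of 4 probes. The 6 members not detected were Pdgfra (-5.98 and -6.47), Lum (-7.55 and -7.62), Thy1 (-7.85 and -7.71), Dpt (-7.79 and -7.84), Fap (-6.46 and -5.82) and Col3a1, and 9 of the 20 were detected when every probe was required. The mesangial list gave 8 of 12 detected, led by Tagln and Acta2, with the growth factor receptor Pdgfrb at 1.87 and 2.16 and renin (Ren1) at 1.9997 and 1.84 on 1 of 2 probes. Itga8, Agtr1a (-7.60 and -7.65), Rgs5 (-7.47 and -7.91) and Sfrp2 (-7.73 and -7.89) of that list were not detected.

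Parietal epithelial cells line the capsule around the glomerulus and share an origin with podocytes, and 10 of 11 of their markers were detected, 8 of them above the 75th percentile. The kinase scaffold Akap12 was at 6.55 and 6.49, Cd24a at 6.38 and 6.40, the basement membrane anchor Lad1 at 3.41 and 3.28 and the adhesion molecule Ncam1 at 3.02 and 2.79. Krt18 was not well above background (-7.09 and -5.83). Nephron progenitor and early epithelial factors were detected in 12 of 17 cases (70.6%), 7 of them above the 75th percentile (41.2%). These shares were near the 68.0% and 43.5% of protein-coding genes. They were below the 75.3% and 48.3% of genes annotated with DNA-binding transcription factor activity. Eya1, a cofactor of nephron progenitors, was at 5.84 and 5.78 on 1 of 3 probes, Gdnf, the progenitor signal to the ureteric bud, at 4.83 and 4.79, and the early nephron factor Pax8 at 2.84 and 2.78. Pax2, which is normally switched off as podocytes mature, was detected by all 4 probes, with 2.19 and 2.16 on the brightest. Six2 (-7.55 and -7.61), the defining factor of self-renewing progenitors, Hnf4a (-7.53 and -7.61), which defines proximal tubule, and Wnt9b (-6.97 and -7.67) were among those not detected.

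No marker of the loop of Henle was detected among 7, and Umod (-5.69 and -7.61), its most abundant secreted protein, and the salt transporter Slc12a1 (-6.76 and -6.49) were near background. The other 5 were Cldn10 (-6.51 and -6.12), Cldn16 (-7.71 and -7.75), Cldn19 (-6.38 and -7.79), Kcnj1 (-7.62 and -7.70) and Ptger3 (-6.97 and -7.82), and that list was the only tubular one with no member detected. Proximal tubule markers were detected in 8 of 15 cases with 2 above the 75th percentile, the water channel Aqp1 at 4.93 and 5.38 and the endocytic receptor Lrp2 at 0.37 and 0.96 on the brightest of 5 detected probes. Cubn, the partner of Lrp2, was at -1.46 and -1.66 and the organic anion transporter Slc22a8 at -4.17 and -4.07. Pck1 (-7.80 and -7.84), Slc13a3 (-7.81 and -7.88), Slc27a2 (-7.82 and -7.88), Cyp2e1 (-5.64 and -5.96) and Hnf4a were not detected. Distal tubule and collecting duct markers were detected in 6 of 17 cases, the sodium channel subunit Scnn1a at 0.36 and 0.46 and the water channel Aqp2 at -0.99 and -0.98, with Gata2 at -1.10 and -1.19 and Trpm6 at -3.63 and -3.91. The defining transporter of the distal convoluted tubule, Slc12a3 (-7.55 and -7.61), was not well above background.

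Endothelial markers were detected in 6 of 15 cases, below the share over all genes. Ehd3, a membrane-remodelling protein of glomerular capillaries, was at 1.27 and 1.47, the secreted protein Egfl7 at 0.55 and 0.39, the receptor Flt1 at -1.14 and -1.46 and Eng at -1.34 and -1.35. The receptors and junction proteins that define endothelium, Kdr (-6.38 and -7.71), Cdh5 (-7.56 and -7.61) and Tek (-7.76 and -7.83), were not well above background. Macrophage and myeloid markers gave 8 of 18, of which Itgam was followed by Ptprc (1.39 and 1.01), Csf1r (0.54 and 1.01) and Cd68 (0.36 and 0.60). Ptprc rested on the brightest of 7 probes, 5 of which were not well above background on either array. Tyrobp (-7.60 and -7.29), Adgre1 (-7.56 and -7.62) and C1qa (-6.62 and -7.64), which mark macrophages, were not detected. Lymphocyte markers were detected in 7 of 15 cases and only Cd4 (1.39 and 1.90) lay above the 75th percentile on both arrays, where its next probe was at -5.39 and -5.30. Cd3e was at -0.71 and -0.60, Prf1 at -1.29 and -1.44 and Lck at -2.50 and -2.20, while Cd8a (-7.08 and -7.83) was not well above background. Over all lists of other kidney and immune cells 64 of 127 genes were detected (50.4%) and 31 were above the 75th percentile (24.4%). Over lists of other tissues the counts were 32 of 76 (42.1%) and 7 of 76 (9.21%). These shares were below the 59.0% and 34.3% of all genes and the 68.0% and 43.5% of protein-coding genes.

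The junction genes included N-cadherin but not E-cadherin or occludin. Of 14 cadherin-type genes 7 were detected: Cdh2, N-cadherin, at 4.13 and 4.26, Cdh16, the kidney-specific cadherin, at 4.02 and 4.24, Cdh11 at 3.81 and 3.75 and Cdh6, a cadherin of the early nephron, at 2.45 and 2.14. Cdh1, E-cadherin (-7.62 and -7.04), Epcam (-7.64 and -7.71), Cdh5, Cdh4 (-7.53 and -7.62), Cdh10 (-7.56 and -7.59) and Cdh15 (-7.73 and -6.09) were not well above background. Of 22 claudins and other tight junction genes, 11 were detected and 3 were above the 75th percentile, the junctional adhesion molecule F11r (4.80 and 4.92), Cldn12 (4.50 and 4.32) and Tjp1 (2.70 and 2.69). Ocln (-7.03 and -6.89), the gene of occludin, was not detected. Intermediate filament genes were led by Vim, Lmna (6.40 and 6.31), which forms the nuclear lamina, and Nes, followed by Krt8 (0.95 and 1.28), and Krt19 (-7.58 and -7.64) was missing with Krt18. Of 10 transcription factors of mesenchymal transition 9 were detected and 6 were above the 75th percentile, Tcf4 at 1.89 and 2.16, Twist2 at 1.75 and 1.70, Zeb2 at 1.53 and 1.37 and Snai2 at 1.04 and 1.12, while Snai3 was not (-6.31 and -5.42).

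Hox genes, which record the position of a cell along the body axis, were detected in 32 of 39 cases (82.1%), 19 of them above the 75th percentile (48.7%). Of genes annotated with DNA-binding transcription factor activity, 75.3% were detected and 48.3% were above it. The share above the 75th percentile was thus near that of transcription factors in general. All 18 genes of paralogue groups 5 to 10 were detected, and 12 of these were above the 75th percentile. Hoxb7 was at 4.38 and 4.27, Hoxc9 at 4.23 and 4.24, Hoxa10 at 3.62 and 3.52 and Hoxb6 at 3.23 and 3.22. In groups 11 to 13, 4 of 9 were detected, namely Hoxa11 (-3.85 and -3.88), Hoxc11 (0.93 and 0.52), Hoxc13 (2.19 and 2.24) and Hoxb13 (-3.54 and -2.94). Hoxd11 (-7.75 and -7.79), which acts with Hoxa11 and Hoxc11 in the embryonic kidney, was not well above background. The other genes not detected were Hoxd12, Hoxd13, Hoxa13 and Hoxc12 of the last groups and Hoxb1 and Hoxd1 of the first, with levels from -7.79 to -6.23. By cluster, 10 of 11 genes of cluster A, 9 of 10 of B, 8 of 9 of C and 5 of 9 of D were detected.

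**Figure D3:**
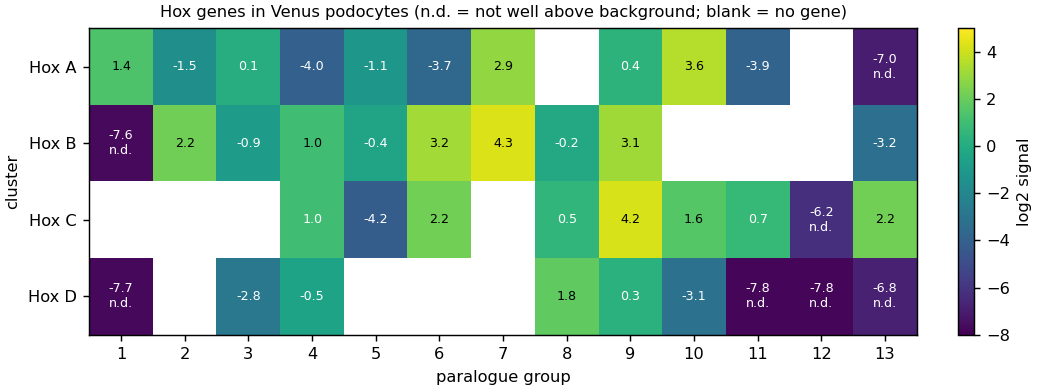
Mean log2 signal of the brightest probe over the 2 arrays for the 39 Hox genes, by cluster (rows) and paralogue group (columns), with colour and printed value giving the level. The highest values, in yellow, are Hoxb7 (4.3) and Hoxc9 (4.2), and the 7 genes marked n.d. were not well above background on either array.

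All 28 interferon-stimulated genes were detected and 23 were above the 75th percentile, with a median level of 3.10. Isg15, the ubiquitin-like modifier of antiviral defence, was at 6.56 and 6.98, the virus tether Bst2 at 5.18 and 5.55, the transcription factor Irf7 at 5.05 and 5.60 and Ifi35 at 5.05 and 5.27. These levels have no uninfected counterpart on the arrays. Of 11 interferon and receptor genes with a probe, 9 were detected. The receptor chains Ifngr1 (4.59 and 4.58), Ifnar2 (2.81 and 2.90), Ifngr2 (2.74 and 2.84) and Ifnar1 (1.86 and 1.74) were above the 75th percentile. Interferon-γ itself (Ifng, -7.85 and -7.91) and Ifna4 (-7.59 and -7.81) were not well above background. Sensors of foreign nucleic acid were detected in 12 of 14 cases, with the RNA sensor Ddx58 at 4.16 and 4.43, the transcription factor Irf3 at 4.18 and 4.15, the mitochondrial adaptor Mavs at 3.71 and 3.64 and the sensor of Z-form nucleic acid Zbp1 at 2.41 and 3.02. Aim2 (-7.74 and -7.47) and Tlr8 (-7.72 and -6.80) were missing.

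The receptor for lipopolysaccharide, the stimulus of podocyte injury in this study, was present with its helpers. Tlr4 was detected by all 3 probes, with -0.045 and 0.11 on the brightest. Its coreceptor Ly96 was at 4.07 and 4.06 and Cd14, which hands over the ligand, at 1.97 and 1.96. Of 20 genes of this pathway 19 were detected and 15 were above the 75th percentile, the NF-κB subunits Rela (6.77 and 6.84) and Nfkb2 (4.65 and 4.80) and the inhibitors Tnfaip3 (5.10 and 5.17) and Nfkbia (4.56 and 4.41) among them, and the adaptor Ticam2 was the gene not detected (-7.60 and -7.64). Of 31 cytokines and chemokines 22 were detected. Spp1, osteopontin, was at 8.16 and 7.90, the macrophage growth factor Csf1 at 6.36 and 6.44, the monocyte chemokine Ccl2 at 5.11 and 5.56 and Cxcl10 at 4.17 and 4.53. Il1b (-7.60 and -7.66), Il1a (-7.80 and -7.86) and Il10 (-7.64 and -7.68) were not well above background. Kidney injury genes gave 10 of 11, with Ccn2, a matricellular growth factor target, at 8.36 and 8.40, Spp1, and the stress cytokine Gdf15 at 8.0033 and 8.05. Havcr1, the tubular injury molecule, had the mark on 1 array (-4.50 and -6.19).

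Creb3l1, the gene that the study overexpressed in the other arrays, was detected in the control cells by its 1 probe at 1.29 and 1.30, with an SD of 0.0039 between arrays. It belongs to a family of transcription factors that are cut from the endoplasmic reticulum membrane, and 8 of 9 genes of this family, Atf6 and their proteases were detected. The protease Mbtps1, which makes the first cut, was at 4.75 and 4.76, Creb3 at 4.33 and 4.41, the protease of the following cut, Mbtps2, at 2.20 and 2.03 and Atf6 at 1.62 and 1.67, and Creb3l3 had the mark on 1 array (-5.34 and -6.02). All 20 unfolded protein response genes were detected and 17 were above the 75th percentile. Atf4, the translationally controlled factor of the integrated stress response, was at 8.71 and 8.64, the chaperone Hspa5 at 6.71 and 6.87, the disulfide isomerase Pdia6 at 6.44 and 6.40 and the lectin chaperone Canx at 6.30 and 6.29.

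The differentiated cells carried transcripts of the cell cycle and of its brakes. All 18 mitotic genes were detected, 6 of them above the 75th percentile (33.3%), with Cdc20 at 2.05 and 2.64, Birc5 at 1.97 and 2.47, Ccnb2 at 1.64 and 1.78 and Aurka at 1.33 and 1.80. The share above the 75th percentile did not exceed the 34.3% of all genes or the 43.5% of protein-coding genes. DNA replication genes were detected in 14 of 15 cases and 12 were above the 75th percentile, with the helicase subunit Mcm7 at 4.30 and 4.42 and Mcm6 at 3.81 and 4.26, the polymerase clamp Pcna at 4.12 and 4.29 and Rrm2, which makes deoxynucleotides, at 3.75 and 4.01, and Ccne2 was not detected (-5.80 and -5.73). Of the D cyclins, inhibitors and p53 pathway genes all 16 were detected and 15 were above the 75th percentile. The p53 antagonist Mdm2 was at 7.92 and 7.90, the cyclin Ccnd2 at 7.64 and 7.52, the inhibitor Cdkn1a at 6.52 and 6.56 and the stress gene Gadd45b at 6.34 and 6.20. Cdkn1c, the inhibitor that marks mature podocytes in tissue, was the gene below the 75th percentile (-2.49 and -2.05).

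**Figure D4:**
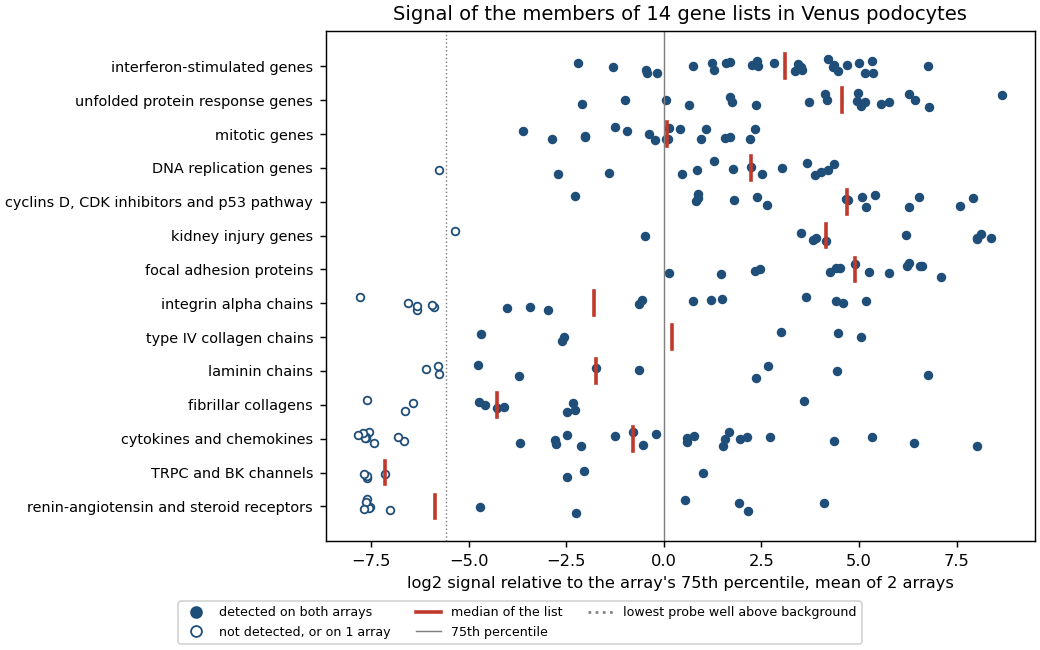
Mean log2 signal over the 2 arrays relative to the 75th percentile (horizontal axis) for each member of 14 gene lists (rows). Filled points were detected on both arrays, open points were not, and the red bar is the median of the list. Interferon-stimulated, unfolded protein response and focal adhesion genes lie to the right of the dotted detection limit without exception, while channels and angiotensin receptors include members on the left.

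Receptors and channels of podocyte disease were detected unevenly. Among TRPC and BK channels, Trpc1 was at 1.07 and 0.96, Trpc6, which is mutated in familial glomerulosclerosis, at -1.99 and -2.12 and Kcnma1 at -2.41 and -2.56, whereas Trpc4, Trpc5 and Trpc7 were not well above background, at -7.68 to -7.57 over both arrays. In the renin-angiotensin and steroid group 6 of 12 were detected. The glucocorticoid receptor Nr3c1 was at 4.14 and 4.08, the prorenin receptor Atp6ap2 at 2.10 and 2.23, Ren1 at 1.9997 and 1.84 and the mineralocorticoid receptor Nr3c2 at 0.54 and 0.54. The angiotensin receptors Agtr1a, Agtr1b (-7.66 and -7.68) and Agtr2 (-6.61 and -7.42), the Mas1 receptor (-7.40 and -7.63) and Cma1 (-7.54 and -7.56) were among those not detected. Of 15 genes of the VEGF and angiopoietin systems 10 were detected, with the coreceptor Nrp2 at 5.68 and 5.76, Nrp1 at 5.31 and 5.39, Vegfa, and Vegfb at -0.72 and -0.71, and the receptors Kdr, Flt4 (-6.09 and -6.85), Tie1 (-6.68 and -7.39) and Tek and the ligand Angpt1 were not. Growth factor receptors included Egfr (5.31 and 5.43) and Igf1r (5.32 and 5.33), in a list of 30 with 25 detected, in which Pdgfa (4.96 and 4.98) and Pdgfb (4.87 and 5.06) were the ligands of highest level. Erbb3 (-5.85 and -6.31), Pdgfra, Hgf (-7.15 and -6.36), Ereg (-7.66 and -7.74) and Areg (-7.82 and -7.88) were not well above background. TGF-β and BMP genes were detected in 23 of 24 cases, with Gdf15 at the top, the mediator Smad3 at 4.76 and 4.83, the receptor Tgfbr2 at 4.43 and 4.50 and the inhibitor Smad7 at 3.68 and 3.51, and Bmpr1b was missing (-7.84 and -7.45).

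Of 2147 genes annotated to the extracellular region or space, the class of proteins that the study set out to find, 1107 were detected (51.6%) and 516 were above the 75th percentile (24.0%). Both shares were below those over all genes, 59.0% and 34.3%. This list and its members were taken after the values were seen. The member of highest level was Ppia (8.82 and 8.73), and Fau (8.57 and 8.50), of the ribosomal proteins or their relatives, and Tpt1 (8.34 and 8.25) were also near the top. The annotation is thus not limited to typical secreted proteins. Besides Sparc, Ccn2, Spp1, Gdf15 and Fn1, its brightest members included the growth factor Grn at 8.38 and 8.42, the prohormone-processing enzyme Cpe at 8.09 and 8.20, the protease inhibitor Cst3 at 8.05 and 8.15 and the interferon-induced chemokine Cxcl11 at 7.98 and 7.94. The other probe of Cxcl11 had a mean level of 2.42. By cellular compartment, 98.2% of 167 ribosome genes, 89.5% of 1709 mitochondrial genes and 91.3% of 149 focal adhesion genes were detected, whereas 25.9% of 607 genes with G protein-coupled receptor activity were.

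The 25 genes of highest signal had levels from 8.28 to 9.36, and genes of ribosomes and ferritin were among them. Rn18s, the small ribosomal RNA, was at 9.43 and 9.29. It was followed by Ppia (8.82 and 8.73), a prolyl isomerase, Ftl1 (8.72 and 8.79), the light chain of ferritin, Atf4 and Ubb (8.69 and 8.64), a ubiquitin gene. Rps18, Fau, Rpl37rt, Rpl19, Rplp1 and Rps10 encode ribosomal proteins or relatives of them, Fth1 the heavy chain of ferritin, Actb cytoplasmic actin, S100a6 a calcium-binding protein and Tpt1 a translation-associated tumour protein. The remaining ones were Sparc, Ccn2, Grn, Kctd14, Exosc2, Glrx2, Elk1, Milr1, Med16 and Gm20594. Of these 25, 9 had 1 probe, and in 10 of the other 16 the next probe lay within 2 log2 units of the brightest. In 3 genes the next probe was more than 5 units lower. Elk1, an ETS transcription factor, had 8.42 and 8.26 on its brightest probe and -1.75 and -2.14 on the next, Med16, a Mediator subunit, had 8.39 and 8.20 and -2.31 and -2.58, and Glrx2, a mitochondrial glutaredoxin, had 8.60 and 8.47 and 3.58 and 3.43. The places of nearly all of these genes rested on 1 probe, since Fau was the sole gene whose next probe (8.36) also lay above the lowest of these levels.

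Such disagreement between probes was common. In 9163 detected genes with several probes, the median distance from the brightest to the dimmest probe was 4.52 log2 units, and it was over 5 units in 4173 genes (45.5%). The share detected also rose with the number of probes, from 43.7% of 15302 genes with 1 probe to 73.4% with 2, 85.6% with 3 and 89.3% with 4 or more.

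Whole gene families gave the range within which detection can be read. Of 77 cytosolic ribosomal protein genes 74 were detected, with a median level of 7.33, and the other 3 were Rpl39l, Rpl3l and Rps4l, relatives of the general genes. Mitochondrial ribosomal proteins gave 77 of 78, complex I subunits 47 of 48, proteasome subunits 38 of 40 and chaperonin subunits 8 of 9. All 15 reference genes were detected above the 75th percentile, from Ppia to Tbp (0.75 and 0.61). At the low end, 115 of 1101 olfactory receptor genes (10.4%), 25 of 264 vomeronasal receptors (9.47%), 4 of 43 beta-defensins (9.30%) and 5 of 38 taste receptors (13.2%) were detected, although these families are expressed mainly in sensory or mucosal tissue. Of these, 7 olfactory receptors (0.636%) and 1 vomeronasal receptor were above the 75th percentile on both arrays. Keratin-associated proteins, which build the hair shaft, gave more, with 23 of 54 detected (42.6%) and 7 above the 75th percentile, the highest being Krtap4-6 at 5.64 and 5.46. A detected level near the limit, like those of Wt1 or of the endothelial gene Pecam1 (-4.68 and -4.87), therefore does not by itself set a gene apart from these families.

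The 2 arrays gave nearly the same signals. Pearson's r between them was 0.994 and Spearman's rho 0.969 over 56598 probes, a description across probes that do not count as replicates. The SD between arrays had a median of 0.069 over 15856 detected genes whose brightest probe had the mark on both arrays, 0.053 for those above the 75th percentile and 0.11 for the rest. Only 46 genes (0.290%) differed by more than 1 log2 unit, 25 higher on replicate 1 and 21 higher on replicate 2. The largest differences toward replicate 1 were those of BB287469 (-2.73 and -4.89), Ctsc (-0.49 and -2.44), a lysosomal peptidase, Klkb1 (-3.75 and -5.41), 4933416I08Rik (-3.71 and -5.37) and Gm4312 (-3.75 and -5.32). Toward replicate 2 they were those of C530020B09Rik (-5.12 and -3.48), Nap1l3 (-5.11 and -3.57), the calcium pump Atp2a3 (-4.67 and -3.37), C130033p17rik (-3.03 and -1.74) and the coactivator Ppargc1b (-2.55 and -1.26). All 10 had mean levels below 0.

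**Figure D5:**
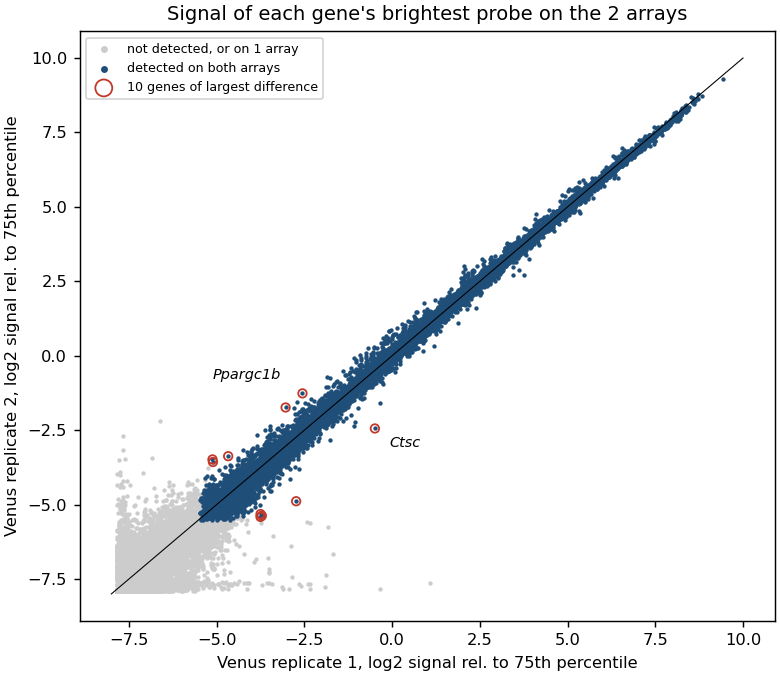
Log2 signal of each gene's brightest probe on Venus replicate 1 (horizontal axis) against replicate 2 (vertical axis), both relative to the array's 75th percentile, with detected genes in blue, the others in grey and the 10 detected genes of largest difference circled. Detected genes follow the diagonal line of equal signal, and grey points along the lower edge, such as Clec4d at 1.07 and -7.62, had signal on replicate 1 alone.

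Of the probes well above background on 1 array alone, 32.2% of 1113 on replicate 1 and 27.8% of 814 on replicate 2 lay in spot rows 289 to 384 of 384, which hold 25.1% of the spots. Those with a large difference were placed less evenly. On replicate 1, 147 probes were well above background and more than 2 log2 units above replicate 2, where they were not, and 95 of them (64.6%) lay in these rows. On replicate 2 there were 87 such probes with 64 (73.6%) in these rows. They included the lectin receptor Clec4d (1.07 and -7.62), Olfr355 (-1.92 and -7.78) and the beta-globin gene Hbb-b1 (-2.64 and -7.68) on replicate 1, and Prkcq (-7.68 and -3.16), a T cell kinase, and Chchd7 (-7.37 and -3.03) on replicate 2. Such probes did not count toward detection, since the mark had to be on both arrays, and the part of the spot position in these values was not tested.

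Genes of the sex chromosomes did not give a uniform picture. Xist, the RNA that silences an X chromosome, was at -2.09 and -2.44. Of the Y-linked genes, Kdm5d was at -2.03 and -2.08 on 1 of 6 probes, and Uty (-7.53 and -7.66), Ddx3y (-7.63 and -7.70), Eif2s3y (-5.91 and -5.85) and Sry (-7.34 and -7.55) were not well above background.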

How the data were processed

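Cyanine3-labelled cRNA of 2 Venus samples was measured on 1-colour Agilent SurePrint G3 Mouse GE v2 arrays, 1 array per sample. The deposited scanner files hold spot intensities that the authors extracted with Agilent Feature Extraction (12.1.0.3, per the file headers), and gProcessedSignal is background-subtracted intensity. The deposited table of the whole series holds an intensity scaled by the authors, which was gProcessedSignal times 1 constant per array (0.697 and 0.684), and a detection score, whose highest value (2) marked a subset of the spots well above background. The 4 columns of the OASIS samples were not used.

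Control spots and spots flagged as outliers (119 and 105) were left out, log2(gProcessedSignal) was averaged over the spots of a probe, and the 75th percentile over probes (intensities of 620 and 664) was subtracted on each array. At least a share of 0.5 of a probe's spots had to be well above background. Each array had 34237 and 33938 such spots among 59305, no saturated spot, and 1 of 308 negative control spots with the mark. The precision is limited by the number of arrays (2). No test was run and no fold change is given, since 1 group is described. The detection and scaling steps were run on simulated data as a check of the code. The simulated probes lay either at background or clearly above the limit, so calls near the background were not tested.

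Genes were named by the symbols of the deposited table, and 10333 of 56605 probes had none. The lists (62, with 880 of 883 genes on the array) and the part of the series described were chosen with earlier results of these data known. Named genes were the 5 markers, the 25 genes of highest signal, the 4 highest detected members of each list described with all members not detected where these were 6 or fewer and otherwise those that define the list, the 5 largest differences between arrays in each direction, Creb3l1 and Prkci; any further gene was chosen after its values were seen. A few such genes are left out of the text, but list counts and medians include them. Alternatives were other detection marks, scalings, a normexp background (offset 50, on the median spot signal), the choice of probe and each array alone. Python 3.11.15, pandas 2.3.3, numpy 2.4.6, R 4.3.3 and limma 3.58.1 were used.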

Additional observations from a re-analysis of the deposited data

How the results depend on the processing

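The count of 15857 detected genes stayed within 1.5 times under each alternative mark, from 11785 when every probe of a gene had to be detected to 19286 with the positive and significant mark. On 1 array alone it was 16229 to 16331. It fell to 9227 when detected genes also had to lie above the 75th percentile, a setting chosen after seeing the data. Genes not detected numbered 10197 and 5077 with the positive and significant mark, and 10562 to 10664 on 1 array alone. The 115 olfactory receptors detected became 313 with that mark, 215 above the 99th percentile of the negative control spots, 7 above the 75th percentile and 129 to 132 on 1 array alone. The 96 detected members of the lists of other cells and tissues became 63 when every probe was required, 38 above the 75th percentile and 102 on either array alone, and the 64 of the podocyte lists became 43, 46 and 64 to 65 in the same order. The count detected moved by over 1.5 times in 25 of 62 lists when every probe was required, and in 40 above the 75th percentile. With every probe required it was 10 for the slit diaphragm list, 28 for inherited nephrotic syndrome, 3 for fibrillar collagens, 4 for mesangial and 3 for lymphocyte markers, and 0 for TRPC and BK channels. Nphs1 was detected with the positive and significant mark, above the negative controls and on replicate 1 alone, and not on replicate 2 alone, while Podxl was detected by some but not every probe. Of the 25 genes of highest signal, 11 kept their place when the probes of a gene were averaged, and 23 on either array alone. Median scaling raised all levels by 4.51 and 4.62, and taking the 75th percentile over spots, also chosen after seeing the data, lowered them by a constant (-0.58 and -0.57). The cause of each shift was not tested. No paired analysis was possible because only the Venus group is described and no test was run. The analyses of promoter sequence were not run. Array signals of different probes set no ratio between genes, and genes near the background cannot be told apart from genes that are not expressed.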

Other observations

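Further signalling lists were also counted. Of 31 Wnt ligands, Frizzled receptors and coreceptors 19 were detected (61.3%) and 11 were above the 75th percentile (35.5%). These shares were close to the 59.0% and 34.3% over all genes and below the 68.0% and 43.5% of protein-coding genes. Wnt7b was at 3.47 and 3.46 on replicates 1 and 2, Wnt9a at 3.37 and 3.55, Wnt5a at 2.75 and 2.72 and Wnt7a at 2.30 and 2.56. Of 21 Notch and Hedgehog genes 17 were detected, with the Hedgehog transducer Smo at 4.20 and 4.10, Notch2, the receptor of early nephron patterning, at 1.89 and 2.0035, the effector Gli3 at 1.54 and 1.74 and the ligand Jag1 at 1.45 and 1.49, while Gli2 (-6.56 and -6.28), Heyl (-7.54 and -7.62), Shh (-7.55 and -7.62) and Dll4 (-7.71 and -7.80) were not well above background. Nuclear receptors were detected in 20 of 24 cases, with Rarg at 4.37 and 4.45, Nr3c1, Rxrb at 4.07 and 4.10 and Nr1h2 at 3.99 and 4.11, and without Ppara (-5.43 and -6.95), Esr1 (-6.37 and -7.84), Rxrg (-6.60 and -7.63) and Pgr (-6.80 and -7.70). Of 13 genes of glucose transport and insulin signalling 10 were detected, among them Igf1r, Slc2a1 (4.32 and 4.23), Irs2 (4.13 and 4.22) and Irs1 (3.24 and 3.37), and Slc2a4 (-5.95 and -6.68), the insulin-regulated transporter, Slc2a3 (-7.56 and -7.63) and Slc2a10 (-7.78 and -7.85) were not. Prostaglandin synthesis was represented by Ptges (4.09 and 4.02) and Ptgs2 (3.76 and 3.62), and the endothelin system by Ece1 (3.30 and 3.41) and Edn1 (2.41 and 2.51) but not by its receptors Ednra (-7.58 and -7.65) and Ednrb (-6.0006 and -7.51).

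Several markers of distant tissues gave signals above the 75th percentile on both arrays. The synaptic gene Snap25 was at 3.87 and 3.78, but its other probes were not well above background, and the keratinocyte factor Trp63 was at 2.83 and 2.72 on 1 of 4 probes. The apolipoprotein gene Apoa2 was detected by both of its probes, with 1.73 and 1.66 on the brighter, while Alb (-7.78 and -6.49), which defines hepatocytes, was not. Cardiac actin, Actc1, was at 3.35 and 3.32 and skeletal actin, Acta1, at 1.57 and 1.46, while Ckm (-7.60 and -7.33), Myod1 (-6.72 and -6.66) and Myh6 (-7.11 and -5.96) were not well above background. These genes were singled out after their values were seen.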
